A study of Mus musculus with 12 samples.

Results

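Embryoid bodies (EB) of day 21 were compared with embryoid bodies of day 4. The members were chosen by sample title: the 3 arrays of day 21 EB and the 3 arrays of day 4 EB, 6 of the 12 arrays of the series, whose other arrays held EB of days 8 and 15. Each array carried messenger RNA of EB in 1 channel and of undifferentiated R1 mouse embryonic stem (ES) cells in the other. ES cells were kept on gelatin with leukemia inhibitory factor and serum. Dissociated EB had been plated on tissue culture dishes in medium with fetal bovine serum, for 21 days in the first group and for 4 days in the second. All groups came from the R1 line, and no agent other than serum is named for the EB. Every value is a deposited normalized log ratio between EB and ES cells, and the difference between the day 21 and day 4 means is a comparison of EB with EB, since the ES channel stands on both sides and cancels as far as the ES RNA was alike on the 6 arrays. Separate cultures for the 3 arrays of 1 day are not stated in the labels, and the p-values therefore measure only the spread between arrays, which may be technical.

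The values are taken as log2 by convention, since no label gives the base, and positive ones are taken to mean more RNA in EB. That direction is likely and not settled: the labelling protocols give Cy5 to EB and Cy3 to ES cells, whereas the titles and the dye fields put ES cells first. Marker genes in an earlier look at these data chose this reading, so the directions of ES cell and endoderm genes below are no evidence for it. Should it be wrong, higher and lower change places throughout, while counts of calls and p-values remain. EB are aggregates in which ES cells, the pluripotent cells of the early embryo, differentiate without a directing signal. Their outer layer is known to form visceral endoderm, the yolk sac tissue that secretes serum proteins before the liver takes over, and their core forms mesoderm, from which heart muscle, vessels, blood and connective tissue arise. As cells leave pluripotency they are known to shut down the ES cell transcription factor network and to divide more slowly. In bulk RNA, a change in the share of cells of a type and a change in RNA per cell cannot be told apart.

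The 3 day 21 arrays correlated more with one another than the 3 day 4 arrays did. Across features, which are not independent replicates, their values correlated by 0.56 to 0.77, against 0.005 to 0.206 among the day 4 arrays. The standard deviation over all features was 0.351 to 0.416 on day 21 arrays and 0.228 to 0.314 on day 4 arrays. Ratios that spread less leave less to correlate, so the lower correlations do not show that day 4 arrays were less reproducible. Array 3 of each of the 2 days differed from arrays 1 and 2 in 96 features without a gene, whose median was -1.30 on day 21 array 3 and -1.54 on day 4 array 3. On the other arrays of these days it lay between -0.12 and 0.06. These array sets are not named in the labels, both days hold them in the same proportion, and 0 of the 96 features were called between the days.

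Of 10689 features tested with limma, 624 (5.84%) passed at an adjusted p under 0.05, 280 (2.62%) higher and 344 (3.22%) lower at day 21. The difference was at least 1 for 150 (1.4%). The arrays of the 2 days did not overlap for 2653 features (24.8%), and 2097 had an unadjusted p under 0.05. Among the 9212 features with 1 gene symbol, 563 (6.11%) were called, 254 (2.76%) higher and 309 (3.35%) lower. The increases were larger: 91 genes rose by at least 1 and 13 by at least 2, against 45 and 3 genes that fell by as much. The median difference was 0.85 over called increases and -0.65 over called decreases. All 563 called genes had the same sign within each array set, with set medians of 0.91 and 0.67 for increases and of -0.67 and -0.64 for decreases. For 560 of them the arrays of the 2 days did not overlap, which fixes the sign in both sets. The agreement in sign is therefore no separate support. The count of called features was 223 without day 21 array 1, 264 without day 21 array 2 and 266 without day 4 array 1. Calls of 171 genes, 72 higher and 99 lower, held without each of the 12 arrays in turn. Where a called gene below is not said to hold without each array, its call was lost in at least 1 of those 12 fits, with the exceptions of Kng1, Cfb, Nnat, F3, Car2, Tinagl1 and Col4a1, which held in all.

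All 6 markers of undifferentiated ES cells fell, and their log ratios summed to -10.6, -10.4 and -9.63 on the day 21 arrays, against -0.77, -1.0 and -0.83 on the day 4 arrays. All 5 markers of mesenchyme rose, with sums of 8.30, 7.25 and 8.30, against -1.39, -0.39 and -1.59. Of 5 markers each of visceral endoderm and epithelium, 3 rose. Sums for heart muscle were 4.18, 3.05 and 1.32, against 0.08, 0.29 and -0.43, with 0 of 4 called. Sums for endothelium were 0.53, 0.35 and 0.59, against -0.38, -0.32 and -0.59, with 0 of 4 called, and those for red cells were 3.26, 2.72 and -0.13, against -0.38, 0.10 and 0.02, with 0 of 4 called. Sums for neurons were lower, at -1.15, -1.52 and -1.80, against 0.08, 0.62 and -0.45, with 1 of 5 called lower. For macrophages only 2 of 5 markers were measured, with sums of 0.54, 0.26 and 0.78, against -0.08, 0.13 and -0.33, and 1 was called higher. The markers Tnnt2, Tek, Cd68, Csf1r and Lyz2 matched no feature used here.

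**Figure D1:**
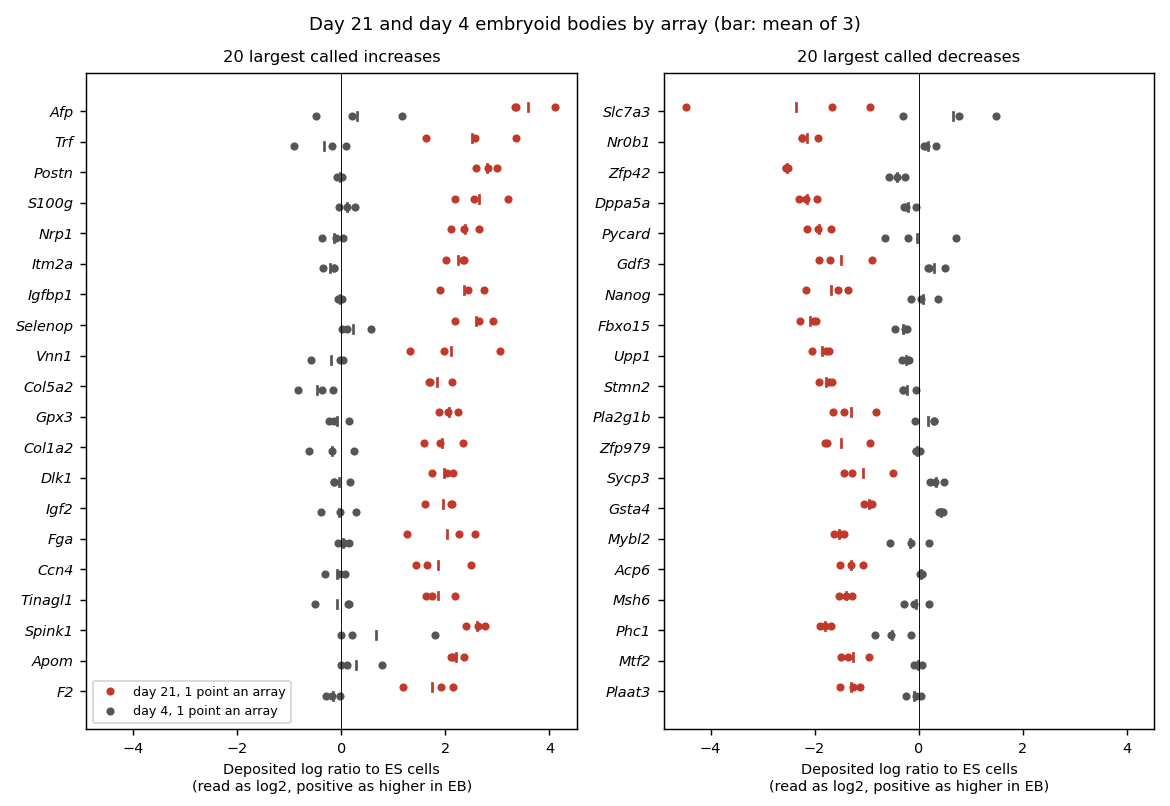
Deposited log ratios to ES cells (horizontal axis, read as log2) of the 20 largest called increases (left) and the 20 largest called decreases (right), with 1 red point for each day 21 array, 1 grey point for each day 4 array and a bar at each mean of 3. The day 21 and day 4 points of each gene do not overlap, as the choice of these genes required, and day 21 array 2 of Slc7a3 lies far from the others at -4.47.

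Serum proteins of yolk sac and fetal liver were among the genes with the largest increases. Of 24 measured, 12 rose and 0 fell, against 2.76% of all genes called higher. Their median difference was 1.11, beside 0.008 over all genes. Afp, the fetal counterpart of serum albumin, read 4.10, 3.34 and 3.35 on the day 21 arrays, against 0.22, -0.48 and 1.17 on the day 4 arrays. All day 21 arrays lay above all day 4 arrays, and the difference of 3.29 ± 0.61 (standard error, adjusted p = 0.00951) was the largest of any gene; in base 2 it is 9.81-fold. Without day 21 array 1 it was 3.04 (adjusted p = 0.052). Trf, the iron carrier of serum, read 3.36, 2.57 and 1.62 at day 21, against -0.18, -0.91 and 0.08 at day 4, a difference of 2.85 ± 0.56 (adjusted p = 0.012) that was 2.43 (adjusted p = 0.0636) without day 21 array 1. Selenop, which carries selenium from the liver to other tissues, read 2.65, 2.92 and 2.19 at day 21 and 0.01, 0.12 and 0.57 at day 4, a rise of 2.35 ± 0.43 (adjusted p = 0.00788). The Selenop call held without each array.

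Called members of the serum protein list included clotting factors and protease inhibitors. Prothrombin, F2, was at 1.92, 2.15 and 1.18 on day 21 arrays and at -0.02, -0.29 and -0.17 on day 4 arrays (difference 1.91 ± 0.39, adjusted p = 0.0137). The fibrinogen chains Fga and Fgb rose by 1.99 and 0.87. The 2 Fga probes gave 1.43 and 2.56. Kng1, the kininogen precursor of bradykinin, read 1.84, 1.13 and 1.54 at day 21, against -0.05, -0.17 and 0.03 at day 4, and rose by 1.57 ± 0.19 (adjusted p = 0.00102). Serpina1b, an alpha-1-antitrypsin, and Serpinc1, antithrombin, rose by 1.61 and 1.07, and complement factor Cfb by 1.17. F2 lost its call without day 21 array 1 (1.83, adjusted p = 0.0655) or array 2 (1.71, adjusted p = 0.0655), and Fga without day 21 arrays 1 (1.72) and 2 (1.88) and day 4 array 1 (2.04). With 1 of the 6 arrays left out, 4 to 15 of the 24 serum proteins were called higher, with 4 called without day 21 array 1.

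Some serum protein genes were high on 1 day 4 array or low on 1 day 21 array. Ttr, the thyroid hormone carrier, read 3.80, 3.17 and 2.80 at day 21, against 0.38, 0.06 and 1.86 at day 4. Its difference of 2.49 ± 0.86 was not called (adjusted p = 0.121), although the arrays did not overlap. Spink1, a trypsin inhibitor, read 2.77, 2.40 and 2.63 at day 21, against 0.21, 0.00 and 1.80 at day 4, where array 3 was again highest, and rose by 1.92 ± 0.44 (adjusted p = 0.0234). The Spink1 call was lost without day 21 array 1 (1.84), day 21 array 2 (2.02), day 4 array 1 (1.69) or day 4 array 2 (1.59). Alb, serum albumin itself, read 1.44, 1.18 and 0.12 at day 21, against -0.01, -0.06 and -0.12 at day 4. The Alb difference of 0.98 ± 0.25 (adjusted p = 0.0382) averages probes at 0.33 and 1.63, and its call held in 3 of the 12 fits that left out an array. Day 4 array 3 was the array on which 5 visceral endoderm markers (Afp, Ttr, Alb, Apoa1 and Trf) summed to 4.48, against 0.37 and -1.09 on day 4 arrays 1 and 2. On day 21 arrays the same sum was 15.7, 12.7 and 10.1, with array 3 lowest. Whether these arrays held other amounts of endoderm was not tested.

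Apolipoproteins are the protein coats of lipoprotein particles, and they were listed with other lipid carriers. Of 22 measured, 6 rose and 1 fell, with a median of 0.64. Leaving out 1 of the 6 arrays gave 3 to 7 called higher, with 3 without day 21 array 1 or 2 or day 4 array 1, and among these 6 fits the decrease was called only in that without day 4 array 3. The median was 0.94 between arrays of the first set and 0.09 between those of the second. The list's array medians were 0.85, 0.79 and 0.45 at day 21, against -0.02, 0.02 and 0.17 at day 4, so that array 3 was the lowest at day 21 and the highest at day 4. Apoa4, a carrier of intestinal and yolk sac lipoproteins, read 2.26, 1.92 and 1.81 at day 21, against 0.21, 0.02 and 0.18 at day 4, and rose by 1.86 ± 0.21 (adjusted p = 6.80e-04). Apom, a lipocalin of high-density lipoprotein, read 2.37, 2.15 and 2.10, against -0.01, 0.10 and 0.77, and rose by 1.92 ± 0.33 (adjusted p = 0.00645). Both calls held without each array. Apoa1, the chief structural protein of high-density lipoprotein particles, differed by 1.96 ± 0.54 and missed the threshold (adjusted p = 0.0543), with day 4 array 3 at 1.48. Apoc2, the activator of lipoprotein lipase, was at 3.01, 2.49 and 1.89 on day 21 arrays and at -0.01, 0.12 and 1.38 on day 4 arrays (adjusted p = 0.126). Apob, the structural protein of low-density lipoprotein, was at 2.90 and 2.41 on day 21 arrays 1 and 2 but 0.15 on array 3, against 0.02, -0.03 and 0.12 at day 4 (adjusted p = 0.121). A fit of the first array set alone drops array 3, the array that stood apart for Ttr, Apoa1, Apoc2 and Apob. That fit was chosen after seeing the data, so it is no support for a rise of these genes. Lcat, which esterifies cholesterol in plasma, fell by 0.59. Of 17 endoderm transcription factors limma called 0, and 2 were higher at an unadjusted p under 0.05. Sox17, a regulator of endoderm, differed by 0.52 ± 0.16 (adjusted p = 0.0865), and Foxa2, a pioneer factor of endoderm, by 0.30 ± 0.15 (adjusted p = 0.30).

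Promoters of Afp, Alb, Fgb, Igfbp1, Apom and S100g are printed, picked because they carry letters like the site of HNF1. HNF1 is a homeodomain factor of liver, gut, kidney and yolk sac. Igfbp1 and S100g belong to neither the serum protein nor the apolipoprotein list. The site searched was GTTAAT, any base and ATTAAC in a row, on both strands, with at most 3 mismatches among its 12 fixed letters, from 250 bases before to 50 after the gene's start. Promoter sequences are RefSeq's of GRCm38.p6, and 7266 measured genes had one. Of all these promoters 6.08% held such a match, against 43.8% (7 of 16) for the serum protein list and 29.4% (5 of 17) for the apolipoprotein list. High shares were not particular to these lists, since fat cell genes held 40% (4 of 10) and lysosomal genes 22.2% (4 of 18). The insulin-like growth factor list, which holds Igfbp1, stood at 6.25% (1 of 16), and other lists went down to 0%, as for basement membrane. Genes called higher held it in 7.54% (15 of 199), close to the share of all promoters, and genes called lower in 5.06% (13 of 257). Among genes that differed by at least 1 the shares were 13.6% (9 of 66) for those called higher and 3.12% (1 of 32) for those called lower. A match is a description of letters and not a site in use, and no test was made of these shares. Each line below gives the 150 bases before the start, 5′ to 3′ on the gene's strand, with the HNF1-like letters in capitals. The 6 windows are Afp at chr5:90490564-90490713 (+), Alb at chr5:90460720-90460869 (+), Fgb at chr3:83049864-83050013 (-), Igfbp1 at chr11:7197637-7197786 (+), Apom at chr17:35131802-35131951 (-) and S100g at chrX:162964600-162964749 (-).
Afp: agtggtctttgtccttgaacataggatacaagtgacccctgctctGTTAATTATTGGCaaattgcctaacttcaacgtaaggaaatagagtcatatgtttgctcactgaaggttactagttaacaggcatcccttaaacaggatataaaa
Alb: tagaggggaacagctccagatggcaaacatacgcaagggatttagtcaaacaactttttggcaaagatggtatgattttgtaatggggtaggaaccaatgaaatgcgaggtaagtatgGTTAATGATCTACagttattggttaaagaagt
Fgb: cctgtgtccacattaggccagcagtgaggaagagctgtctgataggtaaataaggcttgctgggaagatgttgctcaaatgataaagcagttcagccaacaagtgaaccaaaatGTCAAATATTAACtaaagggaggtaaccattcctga
Igfbp1: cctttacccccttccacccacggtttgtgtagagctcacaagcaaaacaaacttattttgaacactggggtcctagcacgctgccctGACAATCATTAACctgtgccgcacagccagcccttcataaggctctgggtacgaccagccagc
Apom: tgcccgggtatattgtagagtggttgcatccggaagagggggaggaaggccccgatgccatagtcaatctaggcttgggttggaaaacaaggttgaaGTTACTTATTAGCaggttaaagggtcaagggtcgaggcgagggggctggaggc
S100g: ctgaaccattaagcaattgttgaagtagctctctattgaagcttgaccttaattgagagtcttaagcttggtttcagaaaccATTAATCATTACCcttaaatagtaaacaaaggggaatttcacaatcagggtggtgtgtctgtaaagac
Each of the 6 matches differs from the searched site at 2 of the 12 fixed letters. These windows hold 0 to 5 CpG pairs, and the Afp window ends in the letters tataaaa next to the start. The median number of CpG pairs in the promoter was 4 in the serum protein list, 16 in genes called higher and 10.5 in those called higher by at least 1, against 17 in all measured genes. S100g, a vitamin D-dependent calcium-binding protein of yolk sac and intestine, read 3.21, 2.55 and 2.19 at day 21, against -0.05, 0.26 and 0.11 at day 4, and rose by 2.55 ± 0.44 (adjusted p = 0.00644), a call that held without each array. Fgb was chosen after its values were seen, for its promoter, and so were the values of Kng1, Serpina1b, Serpinc1 and Cfb above and of Nnat, Igf1r, Lcat, Tgfbi, Sparc, Mfap2, Mmp23, Eed, Mcm7, Pcna and Sod2, as called members of their lists.

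The insulin-like growth factor (IGF) axis and imprinted genes, which are expressed from 1 parental allele and many of which control fetal growth, held 6 of 18 and 10 of 32 members called higher and 0 called lower. Their medians were 0.26 and 0.22, so the members that rose stood well above the rest. Igfbp1, a liver protein that binds IGFs, read 2.43, 2.74 and 1.90 at day 21, against -0.04, 0.01 and -0.06 at day 4 (difference 2.39 ± 0.35, adjusted p = 0.00292). Igf2, the imprinted fetal growth factor, was at 2.10, 1.61 and 2.13, against 0.28, -0.39 and -0.03 (difference 2.0 ± 0.23, adjusted p = 8.59e-04). Dlk1, an imprinted membrane protein that restrains fat cell formation, was at 2.14, 1.74 and 2.03, against -0.14, 0.16 and -0.14 (difference 2.01 ± 0.15, adjusted p = 4.70e-05). The 3 genes were near the ES level on every day 4 array and above 1.6 on every day 21 array. H19, the untranslated RNA next to Igf2, read 1.10, 1.55 and 1.79 at day 21 and 0.16, 0.75 and -0.10 at day 4, and was not called (difference 1.21 ± 0.36, adjusted p = 0.0774). Mest, a gene of growing mesoderm, rose by 1.45 ± 0.15 (adjusted p = 3.63e-04), Ndn, a growth suppressor of neurons, by 1.45 ± 0.22 (adjusted p = 0.00369), and Nnat, a proteolipid of the endoplasmic reticulum, by 0.89. Igf2r, which clears Igf2, rose by 1.06 ± 0.22 (adjusted p = 0.0156), Igfbp4 by 0.94, Igfbp3 by 1.10 and the receptor Igf1r by 0.51. The calls of Igfbp1, Igf2, Dlk1, Mest, Ndn and Igfbp4 held without each array. With 1 of the 6 arrays left out, 3 to 5 members of the IGF axis and 5 to 9 imprinted genes were called higher. The IGF axis had 3 without day 21 array 1 or 2 or day 4 array 1 or 2, and imprinted genes had 5 without day 21 array 1 or day 4 array 1. Igf2r lost its call without day 21 array 1 (0.87) or 2 (0.99) or day 4 array 1 (1.08) or 2 (0.94), and Igfbp3 without each of the 6.

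Connective tissue matrix genes were higher at day 21 as well. Of 35 genes of fibrillar collagens and interstitial matrix, 17 rose and 0 fell, with a median of 0.64. Postn, a matrix protein of periosteum, heart valves and other mesenchyme, read 2.99, 2.58 and 2.83 at day 21, against -0.07, 0.02 and -0.02 at day 4. Its difference of 2.83 ± 0.16 had the smallest adjusted p of any gene shown here (4.34e-06). The collagen chains Col5a2 and Col5a1, which help to set fibril width, rose by 2.30 ± 0.45 (adjusted p = 0.0113) and 1.91 ± 0.25 (adjusted p = 0.00164). Col1a2, a chain of the main collagen of skin and bone, read 1.89, 1.59 and 2.35, against -0.18, 0.25 and -0.62, and rose by 2.13 ± 0.32 (adjusted p = 0.00332). Its partner Col1a1 rose by 1.11 over 3 probes that ranged between 0.11 and 2.49, and Col3a1 by 1.42 over 3 probes between 0.15 and 3.30. The size of the change for these collagens therefore depends on the probe. The small proteoglycans Lum and Dcn, which bind collagen fibrils, rose by 1.64 ± 0.19 (adjusted p = 6.80e-04) and 1.41 ± 0.32 (adjusted p = 0.0228). Tgfbi, Sparc and Mfap2, further matrix proteins, rose by 1.40, 1.27 and 1.23. Calls of Postn, Col5a2, Col5a1, Col1a2, Col1a1, Col3a1, Lum and Tgfbi held without each array, and Dcn was lost without day 21 arrays 1 (1.35) and 3 (1.31) and day 4 arrays 1 (1.33) and 3 (1.26). The list kept 9 to 15 called members with 1 of the 6 arrays left out, with 9 without day 4 array 1, 10 without day 21 array 1 and 11 without day 21 array 2.

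Enzymes that make and crosslink collagen were all positive, 14 of 14, and 4 rose, with a median of 0.67. Serpinh1, the collagen chaperone, was at 1.21, 1.08 and 1.08 on day 21 arrays and at -0.89, -0.09 and 0.35 on day 4 arrays (difference 1.33 ± 0.28, adjusted p = 0.0163). P4hb and P4ha2, subunits of the prolyl hydroxylase that stabilises the collagen helix, rose by 1.02 and 0.87, and Lox, which crosslinks collagen and elastin, by 0.87. Of these 4 calls only that of P4ha2 held without each array, and 1 to 6 members were called with 1 of the 6 arrays left out. Among basement membrane genes 2 of 18 were called higher, or 11.1% called beside 6.11% of all genes, with a median of 0.12. Those were Tinagl1, a matrix protein of basement membranes, with 2.18, 1.74 and 1.64 at day 21 against -0.50, 0.14 and 0.12 at day 4 (difference 1.93 ± 0.26, adjusted p = 0.00164), and Col4a1, a network collagen, with 0.89 over 3 probes between -0.01 and 1.60. The laminin chain Lamc1 stood at 0.30 ± 0.24 (adjusted p = 0.55). Of 21 matrix proteases and inhibitors 3 rose (14.3% called), Cst3, Plat and Mmp23, with a list median of 0.12. The count was 0 without day 21 array 1 or 2 or day 4 array 1, 1 without day 4 array 3, 2 without day 4 array 2 and 5 without day 21 array 3. Plat, an activator of plasminogen, kept its call without day 21 array 3 and lost it without each of the other 5. Cst3, the inhibitor cystatin C, rose by 0.77 ± 0.15 (adjusted p = 0.0113) and lost its call without day 21 array 1 or 2 or day 4 array 1 (0.75, 0.73 and 0.69).

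**Figure D2:**
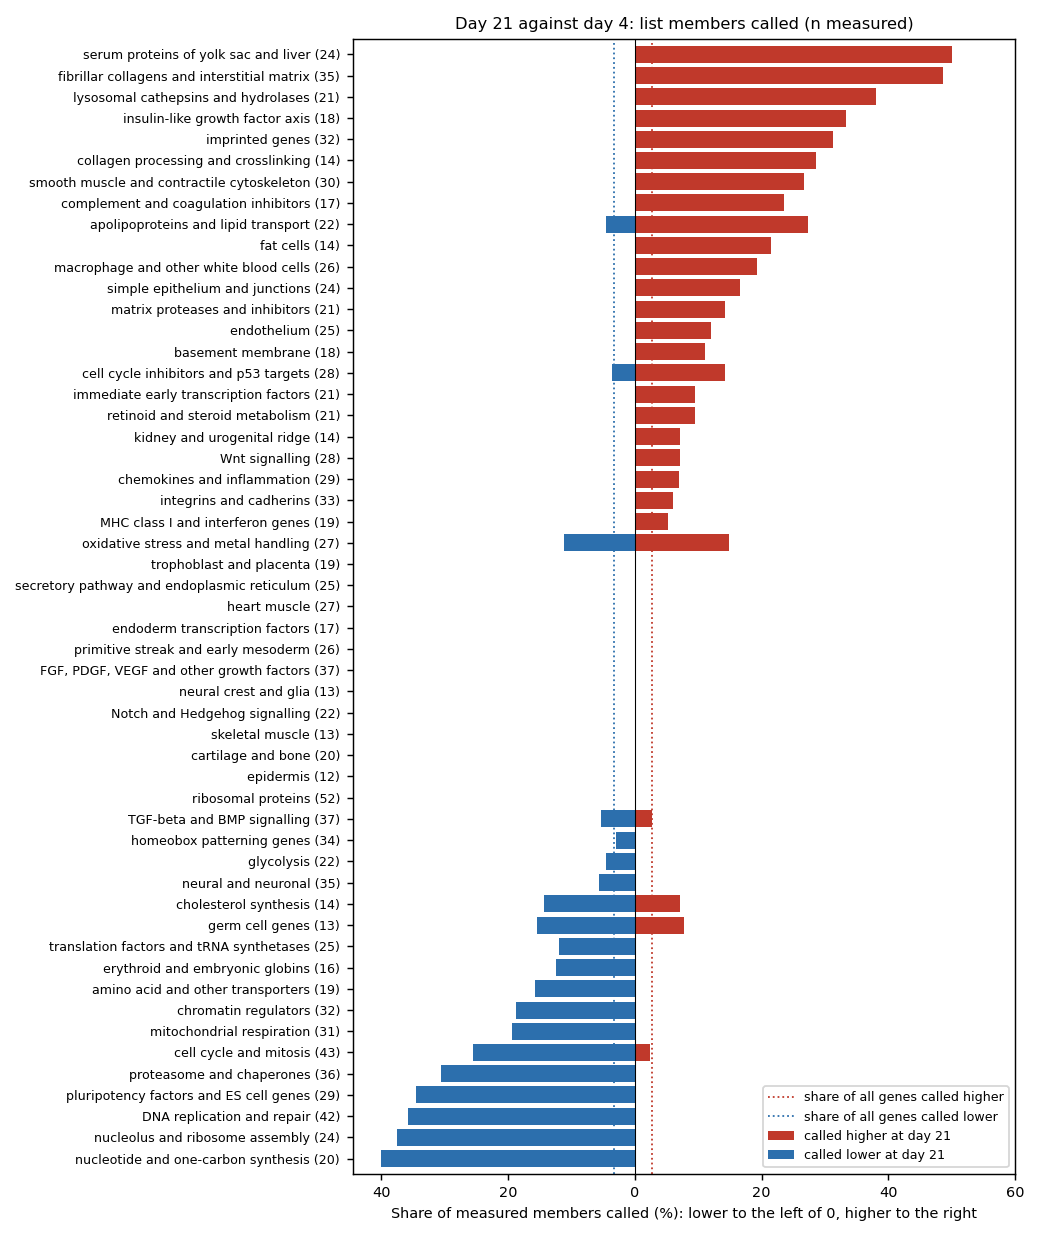
Share of the measured members of each of 53 gene lists called higher (red, to the right of 0) and lower (blue, to the left of 0) at day 21 against day 4, in percent, with the number measured in brackets. Dotted lines mark the share of all genes called higher (2.76%) and lower (3.35%); serum proteins and interstitial matrix reach 50% and 48.6% higher, and nucleotide synthesis 40% lower.

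Simple epithelium was represented by its keratins. Of 24 epithelial and junction genes 4 rose, or 16.7% called beside 6.11% of all genes, with a median of 0.32. Krt8, an intermediate filament protein, read 1.81, 1.61 and 1.58 at day 21, against -0.03, 0.40 and 0.19 at day 4 (difference 1.48 ± 0.22, adjusted p = 0.00335). Its partner Krt18 read 1.95, 1.69 and 1.31, against 0.43, -0.29 and 0.03 (difference 1.59 ± 0.32, adjusted p = 0.0126). Krt19 read 1.22, 1.12 and 1.13, against -0.30, -0.45 and -0.53 (difference 1.58 ± 0.21, adjusted p = 0.00164). The arrays of the 2 days did not overlap for any of the 3 keratins, as for 560 of the 563 called genes and 24.8% of all features. The calls of Krt8 and Krt19 held without each array. The call of Krt18 was lost without day 21 array 1 (1.45) or 2 (1.58). Cdh1 and Epcam, adhesion molecules that ES cells share with epithelium, stood at 0.03 ± 0.12 (adjusted p = 0.923) and -0.08 ± 0.23 (adjusted p = 0.895). Cldn7, a tight junction protein, differed by 0.89 ± 0.25 and missed the threshold (adjusted p = 0.056). The epithelial list kept 2 to 6 called members with 1 of the 6 arrays left out.

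Contractile and cytoskeletal genes of smooth muscle and fibroblasts rose in 8 of 30 cases, with a median of 0.26. That is 26.7% called beside 6.11% of all genes. Vim, the intermediate filament of mesenchyme, read 0.87, 0.92 and 0.89 at day 21, against -1.01, -0.42 and -0.63 at day 4, so that it moved across the ES level, by 1.58 ± 0.26 (adjusted p = 0.00486). Tagln, an actin-binding protein of smooth muscle, did so as well, with 0.48, 0.55 and 1.16 at day 21 against -0.74, -0.39 and -0.81 at day 4 (difference 1.37 ± 0.19, adjusted p = 0.00242). Tropomyosin Tpm1 rose by 1.05 ± 0.17 (adjusted p = 0.00421) and the focal adhesion protein Zyx by 0.86. Acta2, smooth muscle actin, differed by 0.92 ± 0.30 and was not called (adjusted p = 0.0988). S100a4, a calcium-binding protein of motile fibroblasts, was below the ES level at day 21, at -1.88, -1.80 and -1.48, and at -0.82, 0.84 and -1.45 on day 4 arrays (adjusted p = 0.191). The calls of Vim, Tagln and Tpm1 held without each array, that of Zyx was lost without day 21 array 1 (0.74) or 2 (0.83) or day 4 array 1 (0.75), and 3 to 9 members of the list were called with 1 of the 6 arrays left out.

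No heart muscle gene passed the test. Of 27 measured limma called 0, with a median of 0.14, and 6 were higher at an unadjusted p under 0.05. The light chains of heart myosin were raised on day 21 arrays 1 and 2 and little on array 3. Myl4, an atrial light chain, read 2.28, 1.25 and 0.34 at day 21, against -0.04, 0.01 and -0.08 at day 4 (difference 1.33 ± 0.41, adjusted p = 0.0823). Myl7, also atrial, read 1.39, 1.55 and 0.36, against -0.06, 0.23 and -0.32 (adjusted p = 0.0808), and Myl2, the ventricular light chain, 1.59, 1.42 and 0.04, against 0.09, 0.03 and 0.06 (adjusted p = 0.20). A fit of the first array set alone drops array 3 and was chosen after seeing the data, so it is no support for these genes. Actc1, cardiac actin, stood at 0.35 ± 0.17 (adjusted p = 0.279) and Myh6, the atrial heavy chain, at 0.04 ± 0.14 (adjusted p = 0.915). The 13 skeletal muscle genes held 0 calls by limma as well, with 0 higher and 2 lower at an unadjusted p under 0.05.

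Embryonic globins were also raised on day 21 arrays 1 and 2 and not on array 3. Hba-x, an alpha-like chain of yolk sac red cells, read 1.48, 1.06 and -0.08 at day 21, against -0.07, 0.17 and 0.09 at day 4. Hbb-y, a beta-like chain of the same cells, read 1.55, 1.30 and -0.21, against 0.00, -0.03 and -0.10. Neither was called (adjusted p = 0.302 and 0.34), and both were on day 21 array 3 at the level of day 4. Near-identical globin chains can share signal on an array, so values of single chains are uncertain. Of 16 erythroid genes 0 rose and 2 fell, or 12.5% called beside 6.11% of all genes. The carbonic anhydrase Car2 was at -0.70, -0.57 and -0.16 on day 21 arrays and at 0.54, 0.25 and 0.59 on day 4 arrays (difference -0.93 ± 0.16, adjusted p = 0.00621). Klf1, the red cell factor that switches on globin genes, was at -0.58, -0.65 and -0.53, against 0.04, 0.13 and -0.10 (difference -0.61 ± 0.12, adjusted p = 0.0113). The globin transcription factor Gata1 stood at 0.18 ± 0.14 (adjusted p = 0.524). The Klf1 call was lost without day 21 array 2 (-0.58, adjusted p = 0.0501).

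Endothelial genes gave 3 increases among 25, or 12% called beside 6.11% of all genes, with a median of 0.19. With 1 of the 6 arrays left out, 1 to 5 endothelial genes were called higher and 0 to 1 lower. Nrp1, a coreceptor for semaphorins and vascular growth factor that is also found on neurons and mesenchyme, read 2.12, 2.37 and 2.64 at day 21, against -0.10, 0.04 and -0.37 at day 4 (difference 2.52 ± 0.45, adjusted p = 0.00759). Icam2, an endothelial adhesion molecule, rose by 1.06 ± 0.24 (adjusted p = 0.0236) and Ramp2, a partner of the adrenomedullin receptor, by 0.59 ± 0.14 (adjusted p = 0.0336). The defining markers did not pass: Kdr, the vascular growth factor receptor, was at 0.38 ± 0.12 (adjusted p = 0.0797), Cdh5 at 0.21 ± 0.13 (adjusted p = 0.446) and Pecam1 at 0.18 ± 0.15 (adjusted p = 0.579). Of the 3 calls only that of Nrp1 held without each array. Icam2 was lost without day 21 array 1 (0.79) or 2 (1.07) or day 4 array 1 (1.00) or 3 (1.03), and Ramp2 without each of the 6.

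Macrophage and other white blood cell genes were higher in 5 of 26 cases, with a median of 0.32. That is 19.2% called beside 6.11% of all genes. Fcgr3, an antibody receptor, read 1.42, 1.32 and 1.12 at day 21, against -0.01, 0.02 and 0.19 at day 4 (difference 1.22 ± 0.23, adjusted p = 0.0101). Mrc1, the mannose receptor, rose by 0.98, the complement chain C1qb by 0.82, the platelet factor Pf4 by 1.14 and the adaptor Tyrobp by 0.65. Ptprc, found on all white blood cells, stood at -0.03 ± 0.12 (adjusted p = 0.921), and its 2 probes at -0.34 and 0.28. Lysosomal hydrolases, which macrophages and visceral endoderm both use heavily, rose in 8 of 21 cases (38.1% called), with a median of 0.54. Lamp2, a lysosomal membrane protein, was at 1.44, 1.34 and 1.25 on day 21 arrays and at -0.53, 0.24 and -0.29 on day 4 arrays (difference 1.53 ± 0.19, adjusted p = 0.00131), and the protease Ctsb at 1.15, 0.84 and 1.20, against -0.84, -0.10 and 0.08 (difference 1.35 ± 0.24, adjusted p = 0.00774). Ctss, a protease of antigen-presenting cells, was uneven at day 21, with 1.36, 0.45 and 2.34 against -0.15, 0.16 and -0.30, and was called (adjusted p = 0.0336). B2m, the light chain of class I molecules, rose by 1.42 ± 0.29 (adjusted p = 0.0137). It was the 1 called member of 19 antigen presentation and interferon genes, or 5.26% beside 6.11% of all genes. Of these genes Tyrobp, Lamp2 and Ctsb kept their calls without each array. With 1 of the 6 arrays left out, 2 to 5 white blood cell genes and 2 to 6 lysosomal genes were called. Lysosomal calls were 2 without day 21 array 1 or day 4 array 1, 3 without day 4 array 2, and 4 without day 21 array 2 or 3.

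**Figure D3:**
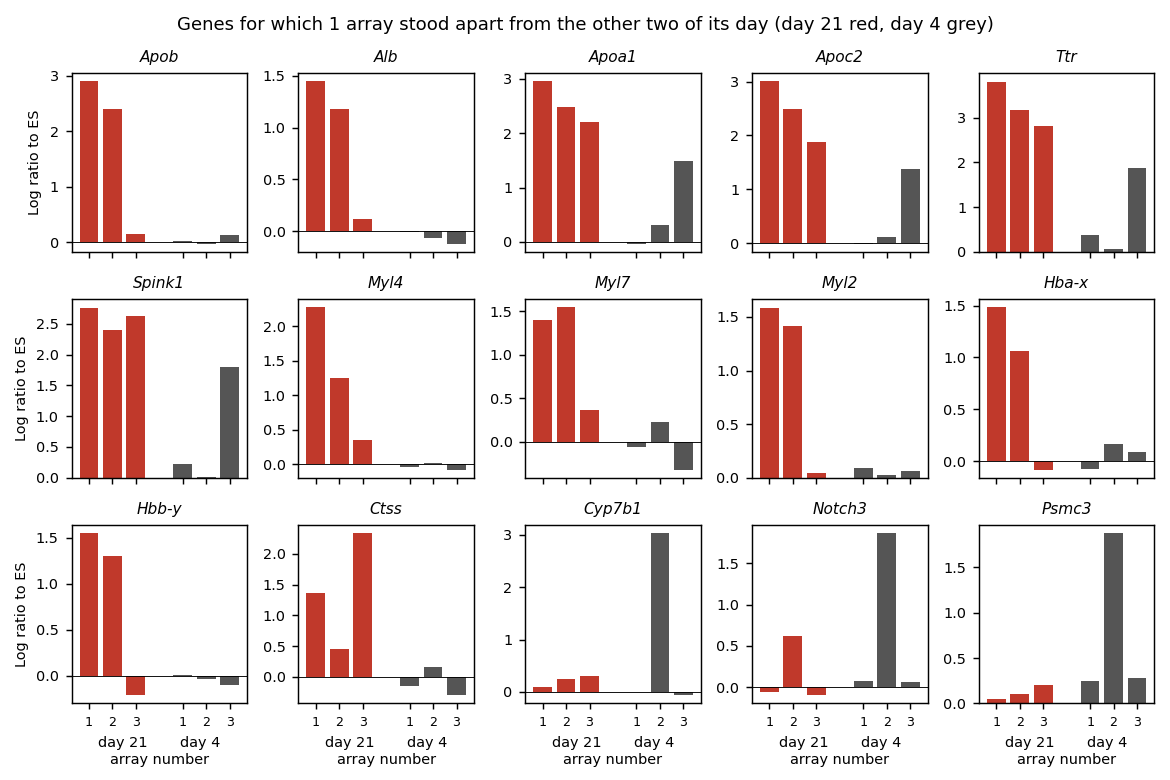
Log ratios to ES cells (vertical axis, read as log2) on the 3 day 21 arrays (red bars) and the 3 day 4 arrays (grey bars) for 15 genes in which 1 array stood apart from the others of its day. Apob, Alb and the heart and globin genes are low on day 21 array 3, Apoa1, Apoc2, Ttr and Spink1 are high on day 4 array 3, and Cyp7b1, Notch3 and Psmc3 are high on day 4 array 2 alone.

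Fat cell genes rose in 3 of 14 cases, or 21.4% called beside 6.11% of all genes. Among them were Fabp4 and Lpl, which also count in the increases of the apolipoprotein and lipid carrier list. Fabp4, a fatty acid carrier of fat cells, macrophages and capillaries, read 1.38, 1.77 and 0.80 at day 21, against -0.23, 0.02 and -0.12 at day 4 (difference 1.43 ± 0.29, adjusted p = 0.0144). Lpl, the lipase that unloads lipoproteins, rose by 0.80 and Cidec, a lipid droplet protein, by 0.51. Pparg, the transcription factor of fat cells, was at 0.95, 0.55 and -0.06, against -0.46, -0.09 and 0.04 (adjusted p = 0.156). Each of the 3 calls was lost without day 21 array 1, day 21 array 2 or day 4 array 1 (1.39, 1.20 and 1.37 for Fabp4, 0.67, 0.69 and 0.75 for Lpl, 0.47, 0.46 and 0.50 for Cidec). Lpl and Cidec also lost theirs without day 4 array 2 (0.84 and 0.51), day 4 array 3 (0.81 and 0.52) or day 8 array 2. Lpl lost it without day 15 array 1 or 2 as well. Without 1 of the 6 arrays 0 to 4 fat cell genes were called.

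Of 35 neural genes measured, 0 rose by limma's test and 2 fell, or 5.71% called beside 6.11% of all genes. Their median was 0.06, and 2 were higher at an unadjusted p under 0.05. Stmn2, a tubulin-binding protein of neurons, was at -1.92, -1.67 and -1.73 on day 21 arrays and at -0.06, -0.31 and -0.30 on day 4 arrays (difference -1.55 ± 0.22, adjusted p = 0.00266), a call that held without each array. Uchl1, a ubiquitin hydrolase of neurons and germ cells, fell by 0.79 ± 0.20 (adjusted p = 0.0337) and lost the call in 6 of the 12 fits that left out an array. Tubb3, neuronal tubulin, stood at 0.00 on average, with 0.34, 0.01 and -0.00 at day 21 and 0.08, 0.16 and 0.12 at day 4. Fabp7, a fatty acid carrier of radial glia, was high on 1 array, with 1.92, 0.76 and 0.08 against -0.22, -0.38 and -0.31 (adjusted p = 0.0853). By limma there were 0 calls among 13 neural crest, 12 epidermis, 20 cartilage and bone, 19 trophoblast, 26 primitive streak, 37 growth factor and 22 Notch and Hedgehog genes. At an unadjusted p under 0.05 these lists held 1, 1, 1, 3, 4, 6 and 1 genes higher and 0, 2, 0, 1, 0, 0 and 0 lower. The 25 genes of the secretory pathway held 0 calls by limma and 4 higher at an unadjusted p under 0.05. Beside 6.11% of all genes, 21.4% of 14 cholesterol synthesis genes were called (1 higher and 2 lower) and 15.8% of 19 amino acid and other transporters (3 lower). Retinoid and steroid metabolism and immediate early factors each stood at 9.52% (2 higher of 21), kidney and urogenital ridge at 7.14% (1 higher of 14) and chemokines and inflammation at 6.9% (2 higher of 29). Each of these lists held 0 to 3 calls in either direction with 1 of the 6 arrays left out, and the transporters held 0 without day 21 array 1, day 4 array 1 or day 4 array 3. Among 34 homeobox genes 1 was called, or 2.94% beside 6.11% of all genes. It was Tgif1, a repressor in Nodal signalling, which fell (-0.89 ± 0.18, adjusted p = 0.0137).

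Signalling lists were called at about the share of all genes, 6.11%: Wnt genes at 7.14% and TGF-beta and BMP genes at 8.11%. Of 28 Wnt genes 2 rose: Ccn4, a matrix protein induced by Wnt, with 1.44, 1.65 and 2.49 at day 21 against 0.07, -0.02 and -0.32 at day 4 (difference 1.95 ± 0.49, adjusted p = 0.0365), and the receptor Fzd2 by 0.65. Ccn4 lost its call without each of the 6 arrays, where its value stayed between 1.63 and 2.16. Of 37 TGF-beta and BMP genes Id2, a target of BMP, rose by 0.89, and Nodal and Gdf3, related ligands of the early embryo, fell by 0.71 and 1.80. Bmp4 stood at 0.60 ± 0.17 (adjusted p = 0.067). Gpc3, a cell surface proteoglycan of fetal tissues, read 1.56, 1.63 and 1.69, against -0.11, -0.25 and 0.54, and rose by 1.57 ± 0.28 (adjusted p = 0.00705). Itgb5, an integrin chain, rose by 0.97 ± 0.15 (adjusted p = 0.00362), and these 2 were the called members among 33 integrin, cadherin and related genes, or 6.06%, beside 6.11% of all genes. Of 17 complement and coagulation regulators 4 rose (23.5% called), Clu, Cd55, F3 and Cfi, and 2 to 4 with 1 of the 6 arrays left out. Clu, the chaperone clusterin, was at 1.56, 1.46 and 1.10, against -0.28, -0.02 and 0.04 (difference 1.46 ± 0.23, adjusted p = 0.00369). The antioxidant list split, with 4 increases and 3 decreases among 27, or 25.9% called beside 6.11% of all genes. The increases included Gpx3, a plasma glutathione peroxidase (2.14 ± 0.33, adjusted p = 0.00362), and Gstm1, a glutathione transferase (1.55 ± 0.30, adjusted p = 0.0106). The decreases included Gsta4, another transferase (-1.38 ± 0.11, adjusted p = 5.41e-05), and mitochondrial Sod2. Hsd11b2, which inactivates glucocorticoids in kidney and placenta, rose by 1.18 ± 0.19 (adjusted p = 0.00498), Itm2a, a membrane protein of developing cartilage and muscle, by 2.45 ± 0.26 (adjusted p = 5.88e-04) and Vnn1, a pantetheinase, by 2.30 ± 0.38 (adjusted p = 0.0053). The calls of Gpc3, Itgb5, Clu, Gpx3, Gstm1, Gsta4, Hsd11b2, Itm2a, Vnn1 and Gdf3 held without each array.

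On the other side, genes of undifferentiated ES cells were lower at day 21. The array medians of the list were -0.94, -0.75 and -0.38 at day 21, against -0.14, -0.05 and -0.08 at day 4. Of 29 pluripotency and ES cell genes, 10 fell and 0 rose, against 3.35% of all genes called lower, and 27 differences were negative, with a median of -0.64. Zfp42, a zinc finger protein that marks ES cells, read -2.55, -2.51 and -2.55 at day 21, against -0.27, -0.58 and -0.41 at day 4, a difference of -2.12 ± 0.19 (adjusted p = 1.23e-04). Nr0b1, an orphan nuclear receptor of the ES cell network, read -2.23, -1.94 and -2.24, against 0.13, 0.33 and 0.09 (difference -2.33 ± 0.28, adjusted p = 9.36e-04). Dppa5a, an RNA-binding protein of pluripotent cells, fell by 1.95 ± 0.18 (adjusted p = 2.22e-04) and the F-box gene Fbxo15 by 1.78 ± 0.24 (adjusted p = 0.00164). At day 4 these genes lay between -0.58 and 0.33 on single arrays, and at day 21 all lay under -1.9. Nanog, a homeodomain factor of pluripotency, was at -1.54, -2.16 and -1.36 on day 21 arrays and at -0.14, 0.37 and 0.04 on day 4 arrays (difference -1.78 ± 0.25, adjusted p = 0.00242). Its partners Sox2 and Pou5f1 fell less, by 0.90 ± 0.17 (adjusted p = 0.0108) and 0.82 ± 0.20 (adjusted p = 0.0348), and whether the 3 differ from one another was not tested. Without day 21 array 1 Sox2 was at -0.79 (adjusted p = 0.0557). Pou5f1 lost its call without day 21 array 1 (-0.72) or 2 (-0.86), day 4 array 1 (-0.76) or 3 (-0.80) and day 8 array 2, while Zfp42, Nr0b1, Dppa5a, Fbxo15 and Nanog kept theirs in all 12 fits. The list held 8 to 13 called members with 1 of the 6 arrays left out.

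Germ cell genes, several of which ES cells also express, held 2 decreases and 1 increase among 13, or 23.1% called beside 6.11% of all genes. With 1 of the 6 arrays left out, 1 to 2 germ cell genes were called lower and 0 to 1 higher. Sycp3, part of the meiotic chromosome axis, was at -1.28, -1.43 and -0.50 on day 21 arrays and at 0.23, 0.31 and 0.48 on day 4 arrays (difference -1.41 ± 0.21, adjusted p = 0.0032). Rnf17, of the germ cell RNA granules, fell by 1.18 ± 0.32 (adjusted p = 0.047), a call that held in 2 of the 12 fits. Tex101, a germ cell surface protein, rose by 0.50 ± 0.12 (adjusted p = 0.0253). Of 32 chromatin regulators 6 fell and 0 rose, or 18.8% called beside 6.11% of all genes, with a median of -0.13. The count was 3 without day 21 array 1 or 2 and 3 to 8 with any 1 of the 6 arrays left out. Phc1, a Polycomb subunit, read -1.90, -1.79 and -1.68, against -0.54, -0.85 and -0.15 (difference -1.28 ± 0.16, adjusted p = 0.00127), and its Polycomb relative Eed fell by 0.69 ± 0.13 (adjusted p = 0.0113). Hells, a remodeller needed for DNA methylation, read -0.95, -1.07 and -1.25, against -0.08, -0.36 and 0.20 (difference -1.01 ± 0.15, adjusted p = 0.00266). Dnmt3b, a DNA methyltransferase of early embryos, was called at -1.54 ± 0.33 (adjusted p = 0.0177) although its arrays touched, with -1.51, -1.32 and -0.23 at day 21 and 0.83, -0.24 and 0.98 at day 4. Dnmt3l, its partner, was at -2.15, -1.62 and -0.08, against -0.39, -0.74 and -0.04 (adjusted p = 0.36). Sycp3, Phc1, Eed and Hells kept their calls without each array. Dnmt3b lost its call without day 21 array 1 (-1.30) or 2 (-1.39) or day 4 array 1 (-1.39) or 3 (-1.31). Tex101 was lost without each of day 21 arrays 1 and 2 and the 3 day 4 arrays.

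Growth machinery was lower across many lists by less than 1 for most genes. Of 42 DNA replication and repair genes, 15 fell and 0 rose, 39 differences were negative and the median was -0.47. Orc1, which marks replication origins, read -1.20, -0.95 and -0.93 at day 21, against 0.09, -0.16 and -0.00 at day 4 (difference -1.0 ± 0.11, adjusted p = 6.50e-04). Msh6, of mismatch repair, read -1.54, -1.39 and -1.28, against 0.20, -0.29 and -0.10 (difference -1.34 ± 0.20, adjusted p = 0.00362), and the helicase Blm fell by 0.97 ± 0.11 (adjusted p = 6.50e-04). The replicative helicase subunits Mcm5 and Mcm7 both fell by 0.53, the polymerase clamp Pcna by 0.54 and the primase-linked polymerase Pola1 by 0.75. Rrm2 and Tyms, which supply deoxynucleotides, fell by 0.82 ± 0.19 (adjusted p = 0.0229) and 0.85 ± 0.15 (adjusted p = 0.00788). Of 20 genes of nucleotide and one-carbon synthesis 8 fell and 0 rose, with a median of -0.33. Upp1, which splits uridine, read -2.05, -1.72 and -1.78, against -0.21, -0.19 and -0.32 (difference -1.61 ± 0.21, adjusted p = 0.0016). Prps1, Mthfd1 and Gart, enzymes of purine and folate metabolism, fell by 0.83, 0.82 and 0.76. Orc1, Msh6, Blm, Tyms, Upp1, Prps1, Mthfd1 and Gart kept their calls without each array, and Rrm2 lost it without day 21 array 3 (-0.64) or day 4 array 1 (-0.84) or 3 (-0.72). The 2 lists held 6 to 18 and 4 to 7 called members with 1 of the 6 arrays left out.

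Promoters of Mcm5 and Pola1, of the replication list, and of Hells, of the chromatin list, are printed. They carry letters of the E2F site, bound by the factors that switch on genes for DNA synthesis. The letters searched were TTTGGCGC or TTTCCCGC, on both strands, in the same windows from 250 bases before to 50 after the start; neither spelling is contained in the HNF1 site, although a promoter can hold both, and that of Hells also meets the HNF1 rule, with 3 mismatches. Of all promoters 2.53% held 1 of them, against 27.8% (10 of 36) for the replication list. Raised shares were not particular to that list. The chromatin list held 10.3% (3 of 29), the cell cycle list 12.5% (4 of 32) and the nucleolus list 15.8% (3 of 19). Epidermis stood at 16.7% (1 of 6) and antigen presentation and interferon genes at 11.1% (2 of 18). Other lists went down to 0%, as for ribosomal proteins. The share was 7% (18 of 257) for genes called lower and 1.01% (2 of 199) for genes called higher. The median number of CpG pairs was 21 in promoters of genes called lower and 14.5 in those called lower by at least 1, against 17 in all measured genes. No test was made of these shares. The windows are the 150 bases before the start of Mcm5 at chr8:75109359-75109508 (+), Pola1 at chrX:93632156-93632305 (-) and Hells at chr19:38930840-38930989 (+), on the gene's strand with the E2F letters in capitals. Mcm5 and Pola1 were chosen after their values were seen, for their promoters.
Mcm5: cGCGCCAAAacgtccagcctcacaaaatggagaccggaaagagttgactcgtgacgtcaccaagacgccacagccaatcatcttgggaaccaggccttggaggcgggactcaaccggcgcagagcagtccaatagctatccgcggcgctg
Pola1: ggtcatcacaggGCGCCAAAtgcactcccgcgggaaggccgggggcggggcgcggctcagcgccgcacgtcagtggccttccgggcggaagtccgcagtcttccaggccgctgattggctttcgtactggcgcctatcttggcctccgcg
Hells: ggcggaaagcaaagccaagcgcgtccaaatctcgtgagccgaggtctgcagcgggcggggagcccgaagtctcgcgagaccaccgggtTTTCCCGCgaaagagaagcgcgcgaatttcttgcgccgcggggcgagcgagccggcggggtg
In Mcm5 and Pola1 the capitals are the reverse complement of the first spelling, and in Hells the second spelling reads forward. The 3 windows hold 13, 18 and 23 CpG pairs, against 0 to 5 in the HNF1 windows above. Both groups of windows were picked for their letters, and the E2F spellings themselves contain a CpG pair. The contrast therefore describes the printed windows and does not compare the lists.

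Of 43 cell cycle and mitosis genes, 11 fell and 1 rose, with a median of -0.29. Mybl2, a transcription factor of dividing cells, read -1.52, -1.63 and -1.44 at day 21, against -0.55, 0.20 and -0.15 at day 4 (difference -1.36 ± 0.21, adjusted p = 0.00384). Smc4, a condensin subunit, fell by 1.11 ± 0.21 (adjusted p = 0.00987), Ccne1, the cyclin of entry into DNA synthesis, by 0.94 ± 0.17 (adjusted p = 0.00787) and the checkpoint proteins Bub1 and Mad2l1 by 0.76 and 0.75. The gene that rose was Ccnd2, a cyclin of the G1 phase. Ccnd2 read 1.74, 1.72 and 1.92 at day 21, against 0.25, 0.45 and 0.32 at day 4 (difference 1.45 ± 0.21, adjusted p = 0.00272). Of 28 cell cycle inhibitors and p53 targets 4 rose and 1 fell, or 17.9% called beside 6.11% of all genes. Those were Plk2, Tob1, Cdkn1c and Cdkn1a, at 1.12, 0.70, 0.65 and 0.63, and Gas5, a noncoding host of small nucleolar RNAs, at -0.73. Calls of Mybl2, Ccne1, Mad2l1 and Ccnd2 held without each array, and Smc4 (-1.05) and Bub1 (-0.68) lost theirs without day 21 array 1. With 1 of the 6 arrays left out 5 to 13 cell cycle genes were called lower and 0 to 3 inhibitors higher.

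Genes of ribosome assembly were lower at day 21, and no ribosomal protein was called. Of 24 nucleolar genes 9 fell and 0 rose, with a median of -0.50. Nop56, a core protein of the particles that methylate ribosomal RNA, was at -0.73, -0.67 and -0.61 on day 21 arrays and at 0.33, 0.33 and 0.29 on day 4 arrays (difference -0.99 ± 0.11, adjusted p = 6.50e-04). Its partner Nop58 fell by 0.89 ± 0.14 (adjusted p = 0.0038), Dkc1, the pseudouridine synthase, by 1.13 ± 0.23 (adjusted p = 0.0156) and Ebna1bp2, a ribosome assembly factor, by 1.05 ± 0.18 (adjusted p = 0.00586). Nop56 was above the ES level on every day 4 array and below it on every day 21 array. Of 52 ribosomal proteins limma called 0, although 45 were negative, with a median of -0.20, and 8 were lower at an unadjusted p under 0.05. Translation factors and tRNA synthetases held 3 decreases among 25, or 12% called beside 6.11% of all genes. The count of decreases was 0 without day 21 array 2 and 1 without day 21 array 1 or day 4 array 3. It was 2 without day 21 array 3 or day 4 array 1, and 4 without day 4 array 2. Myc, a driver of ribosome production, stood at 0.06, -0.18 and 0.29, against 0.78, 0.50 and 0.40 (difference -0.51 ± 0.18, adjusted p = 0.129). Calls of Nop56, Nop58 and Ebna1bp2 held without each array, Dkc1 was lost without day 21 arrays 1 (-0.88) and 2 (-1.14) and day 4 array 1 (-1.09), and 5 to 12 nucleolar genes were called with 1 of the 6 arrays left out.

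Proteasome subunits and chaperones were negative in 36 of 36 cases, and 11 fell, with a median of -0.36. The heat shock protein Hsp90aa1 read -1.35, -1.21 and -1.02 at day 21, against 0.20, -0.14 and -0.18 at day 4 (difference -1.15 ± 0.20, adjusted p = 0.00705). The chaperone Hspa4 read -0.96, -0.85 and -0.91, against 0.14, -0.27 and 0.14 (difference -0.91 ± 0.13, adjusted p = 0.00258). The 2 Hsp90aa1 probes gave -1.67 and -0.63. Psmd12, of the proteasome lid, fell by 0.89 ± 0.14 (adjusted p = 0.00369). Of 31 genes of mitochondrial respiration 6 fell and 0 rose, or 19.4% called beside 6.11% of all genes, with a median of -0.24. Cycs and Cyc1, both cytochromes of the respiratory chain, fell by 0.66 ± 0.09 (adjusted p = 0.00227) and 0.78 ± 0.15 (adjusted p = 0.012). Glycolysis held 1 call among 22, or 4.55% beside 6.11% of all genes, and a median of 0.04. The called gene was Ldhb, a lactate dehydrogenase chain, which fell (-0.58 ± 0.15, adjusted p = 0.0395). Slc7a3, a carrier of arginine and lysine that ES cells express, had the largest decrease and the least even one, with -1.67, -4.47 and -0.94 at day 21 against 1.49, -0.30 and 0.78 at day 4 (difference -3.02 ± 0.71, adjusted p = 0.0271). Slc7a3 lost its call without day 21 array 1 (-3.36), day 4 array 1 (-2.60) or day 4 array 3 (-2.95). Hsp90aa1, Hspa4, Psmd12 and Cycs kept theirs without each array. Cyc1 lost its call without day 21 array 1 (-0.69), and Ldhb without that array (-0.50), day 21 array 2 (-0.59), day 4 arrays 1 (-0.57) and 3 (-0.48) and 2 arrays of other days. With 1 of the 6 arrays left out 5 to 12 proteasome and chaperone genes and 1 to 5 respiration genes were called.

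Values on days 8 and 15 place the change between the 2 days. Day 8 holds 1 array of the first set and 2 of the second, whereas days 4, 15 and 21 hold 2 of the first and 1 of the second, so day 8 and array set cannot be told apart in what follows. These are descriptions without a test, since the shares use the same day 4 and day 21 arrays. Of the 91 genes that rose by at least 1, the median stood at 24.3% of the day 4 to day 21 difference by day 8 and at 73.7% by day 15. By day 15, 79 of them had passed the midpoint and 11 had gone beyond the day 21 mean. For the 45 genes that fell by at least 1 the medians were 29.7% and 66.1%, and 37 had passed the midpoint by day 15. Afp averaged 0.30, 1.81, 3.48 and 3.60 on days 4, 8, 15 and 21. Postn stood at -0.03 and 0.01 on days 4 and 8, then at 2.46 and 2.80. Igf2 averaged -0.05, 0.33, 2.19 and 1.95, while Igfbp1 averaged -0.03, 0.29, 1.18 and 2.36 and Fabp4 -0.11, -0.44, 0.17 and 1.32. S100g stood at 85.9% of its change on day 8, where its arrays read 1.20, 2.17 and 3.51, and the Afp arrays of day 8 read 0.01, 2.42 and 3.01. For both genes the higher day 8 arrays, 2 and 3, are those of the second set. Postn stood at 87.8% of its change by day 15 and Fabp4 at 19.4%.

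**Figure D4:**
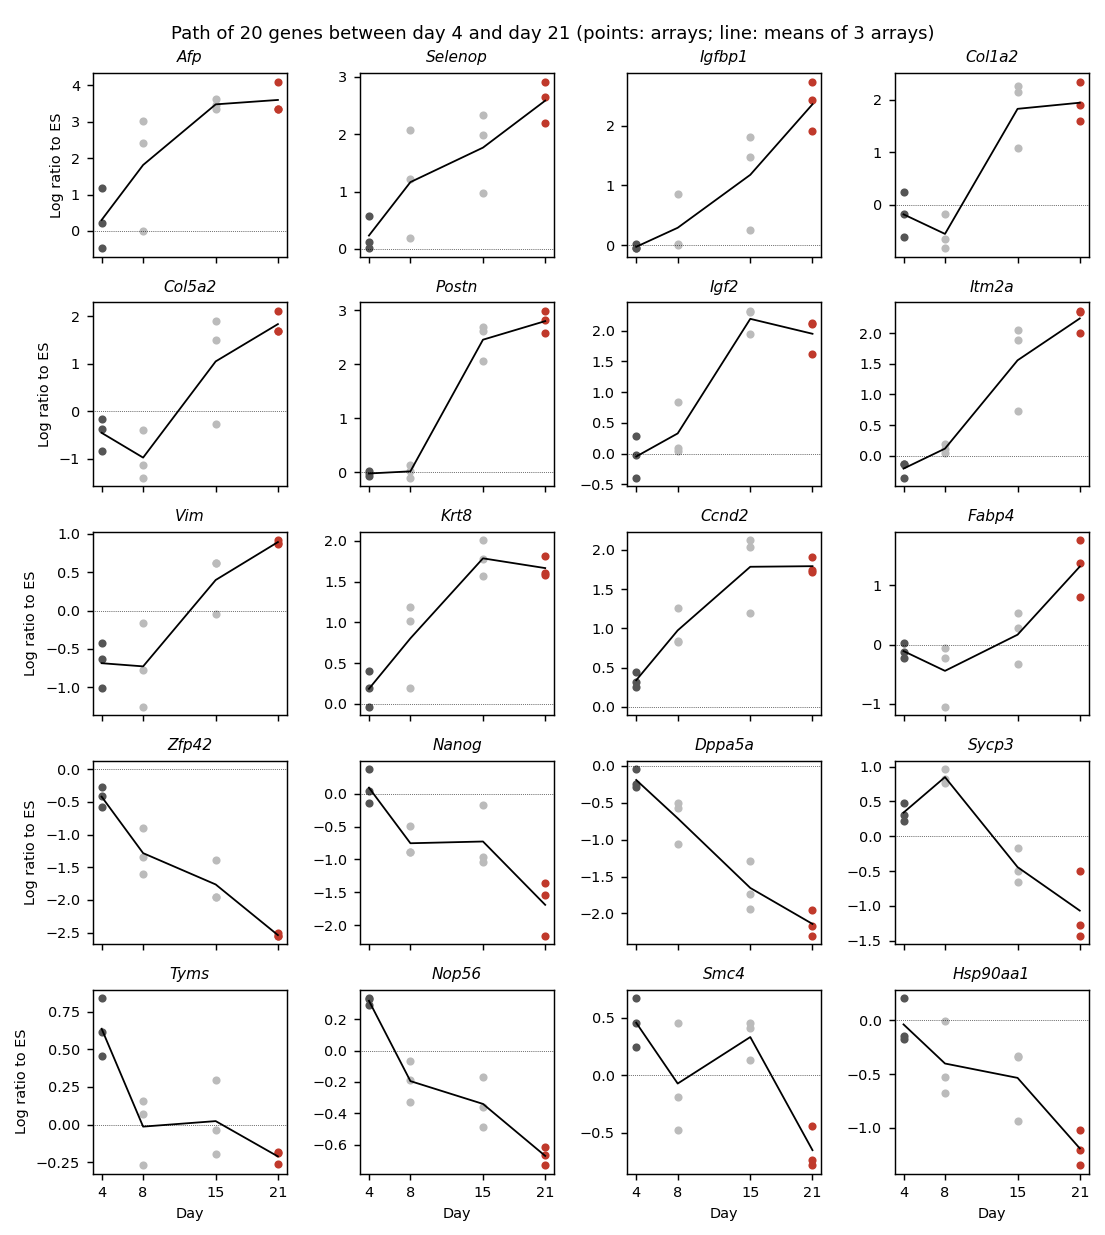
Log ratio to ES cells (vertical axes, read as log2, scaled separately) against day (horizontal axes) for 20 genes, with 1 point for each array and a line through the means of 3 arrays, day 21 in red and day 4 in dark grey. Col1a2, Col5a2 and Vim stay at or below their day 4 level on day 8, and Sycp3 is higher on day 8 than on day 4 before it falls.

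Decreases are described in the same way. Zfp42 averaged -0.42, -1.28, -1.76 and -2.54 on days 4, 8, 15 and 21, a decline at each step. Nanog averaged 0.09, -0.75, -0.73 and -1.69. Sycp3 averaged 0.34, 0.85, -0.44 and -1.07, highest on day 8, when its 3 arrays read 0.76, 0.82 and 0.96. Tyms averaged 0.64, -0.01, 0.02 and -0.21 and so had made 76.6% of its change by day 8, whereas Smc4, at 0.46, -0.07, 0.33 and -0.65, had made 11.2% of its change by day 15.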

How the data were processed

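The deposited values are normalized log ratios of 2-colour arrays, read as log2, 1 per feature and array, for EB of days 4, 8, 15 and 21 with 3 arrays a day. Per the labels, EB RNA and ES cell RNA were labelled with different dyes, and no dye swap is given. How the authors corrected background and normalized is not given in the sources used here, nor is the log base, and no scanner intensities were used.

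Of 11520 features, 10043 had 1 gene symbol in the platform annotation, 29 had several and 1448 had none. Features of 1 symbol were averaged (754 genes had more than 1), which gave 9212 genes and, with 1477 others, 10689 features tested. A mean per day was fitted to all 12 arrays with limma 3.58.1 in R 4.3.3 (lmFit and eBayes), and day 21 minus day 4 was tested with Benjamini-Hochberg adjustment over all 10689 at 0.05, called when under it. Standard errors are those of this fit. Tables and figures were made with Python 3.11.15, pandas 2.3.3, numpy 2.4.6 and matplotlib 3.10.9. The number of arrays limits the precision. A test on simulated data drew independent normal noise for 10689 features, without array sets, and shifted 50 features by each size. It recovered 84% of changes of 1 and 34% of changes of 0.5, with 10 false calls among the features left unshifted. The real arrays fall into sets, so these rates may not carry over.

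The 53 gene lists, with 1514 genes of which 1265 were measured, and the members compared were chosen with earlier results of these data known. Lists share members, so their counts are not independent. Igf2 and Igf2r count in the IGF and imprinted lists, and Dcn in the matrix and imprinted lists. Phc1, Mybl2 and Gdf3 count in the ES cell list and in another. Genes named are the 20 largest called increases and decreases without overlap between the days, for each list the 6 members that differed most in either direction, and the cell type markers; others are said to be chosen after their values were seen. The titles number the arrays of each day, and these numbers were not taken as pairs. Same-numbered arrays of days 21 and 4 deviated together by correlations of 0.086, 0.193 and 0.252, against -0.233 to 0.027 for arrays of different number. These values are a hint of pairs, and a fit with a replicate block is given below. Array 3 of both days belongs to the second array set, so for 0.252 number and set cannot be told apart. Alternatives were the 6 arrays alone, a replicate block, an array set term, 2 scalings, array weights, single probes, a robust prior, a stricter threshold and leaving out each array.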

Additional observations from a re-analysis of the deposited data

How the results depend on the processing

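As reported, 624 features were called, 280 higher and 344 lower, 150 of them by at least 1, with 207 list members among them. With the 6 arrays of days 21 and 4 alone 395 were called, with 178 lower and 217 higher, so that more were higher than lower. Quantile normalization between arrays left 374 (165 higher, 209 lower, 97 by at least 1), and scaling to the same median absolute value left 308 (137 higher, 171 lower, 76 by at least 1, 118 list members). Array weights gave 1343 (621 higher, 722 lower, 234 by at least 1, 347 list members). An adjusted p under 0.01 left 179 (76 higher, 103 lower, 88 by at least 1). The first array set alone, chosen after seeing the data, gave 829, with 497 higher and 332 lower and 262 by at least 1. Leaving out 1 array gave 223 to 773 called, 92 to 361 higher, 131 to 412 lower, 94 to 197 by at least 1 and 90 to 238 list members. The cause of these shifts was not tested. A replicate block gave 614 (262 higher, 352 lower, 156 by at least 1, 210 list members), and every array correlated best with its own number, a hint from the data and not the design. An array set term gave 742, single probes 649 and a robust prior 622. Col4a1 was at -0.01 (adjusted p = 0.981) for 1 of its probes. Turning the sign of every array leaves all counts and exchanges higher and lower.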

Other observations

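Of the 563 called genes 356 belong to no list, and the following were chosen among them after their values were seen. Hbb-b2, an adult beta globin, read 1.75, 1.47 and 0.70 at day 21, against 0.12, 0.07 and 0.00 at day 4, and rose by 1.24 (adjusted p = 0.0135), although no gene of the erythroid list did. Near-identical globin chains can share signal on an array. Ehhadh, an enzyme of peroxisomal fatty acid oxidation, read 1.38, 2.03 and 1.56, against -0.13, -0.03 and 0.03 (difference 1.70, adjusted p = 0.00164). Tmsb4x, which binds actin monomers, read 1.06, 1.05 and 1.62, against -0.09, -0.13 and -0.05 (difference 1.33, adjusted p = 6.90e-04). Usp18, which removes an interferon-induced modifier from proteins, rose by 1.21 (adjusted p = 0.0113), while B2m was the 1 called member of the interferon list.

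Among decreases outside the lists, Xrcc6, a subunit of the Ku complex that binds broken DNA ends, read -1.05, -1.02 and -0.83 at day 21, against 0.18, 0.34 and 0.05 at day 4 (difference -1.16, adjusted p = 3.40e-04). Terf1, which binds telomere repeats, read -0.85, -0.99 and -0.92, against 0.10, 0.00 and 0.18 (difference -1.02, adjusted p = 0.0014). The calls of Ehhadh, Tmsb4x, Xrcc6 and Terf1 held without each of the 12 arrays. Hbb-b2 kept its call in 10 of those 12 fits and Usp18 in 11.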
